A study of Homo sapiens with 2 samples.

Results

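RNA polymerases I, II and III are the enzymes that copy the nuclear genome into RNA. The genes described here encode their subunits, factors that bring polymerases I and III to their genes, and MAF1, a repressor of polymerase III. The rule reads gene symbols and no measured value, but it was set with earlier results of these data known. It took POLR1, POLR2 and POLR3 followed by a letter, TAF1A to TAF1D, every symbol that begins with GTF3, and RRN3, UBTF, BRF1, BRF2, BDP1 and MAF1. It found 50 of the 20046 genes named on the array, covered by 89 probes. All 50 were among the 13201 genes measured, meaning that at least 1 probe lay above the dim-probe level of at least 1 array. POLR2K was above it on the parental array only, and the other 49 on both.

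K562 is an established human line of chronic myeloid leukemia that depends on the BCR/ABL kinase. NilotinibR cells were K562 cells passaged in nilotinib, an inhibitor of that kinase, at 0.1, then 0.3 and then 1 µM over 3 months until they grew routinely in 1 µM drug. Parental cells were K562 cells carried alongside without drug, and both were grown in RPMI1640 with 10% fetal bovine serum. Total RNA of each was hybridised to 1 Illumina HumanHT-12v4 BeadChip array. Since each condition was measured once, no p-value is given and no difference has a replicate check. A difference between the cultures, the drug in the medium and the arrays cannot be told apart.

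Polymerase I transcribes the ribosomal RNA precursor, polymerase II transcribes messenger RNAs, and polymerase III transcribes transfer RNAs, 5S ribosomal RNA and other small RNAs. The enzymes are built on a common plan: some subunits are found in all of them, others only in polymerases I and III, and the rest in a single enzyme. Polymerases I and III supply the RNA of the translation machinery, and their output is known to follow growth signals, MYC and the repressor MAF1.

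The deposited intensities of the 47323 probes ran between 88.2 and 22044 on the nilotinibR array and between 92.8 and 21126 on the parental array, and 46.9% of probes in nilotinibR and 47.6% in parental cells lay above the dim-probe level. All 7 measured markers of the K562 erythroid program were above it on both arrays, with summed normalised intensities of 73765 in nilotinibR and 70401 in parental cells, nearly all of it from the globins HBG1, HBG2, HBE1 and HBZ. Of these 7 markers, 2 had a level at least 1.5-fold above that in parental cells, the erythroid transcription regulators TAL1 (652 in nilotinibR and 177 in parental cells) and LMO2 (2068 in nilotinibR and 790 in parental cells), and their part in the results below was not tested. Of 9 measured markers of other cell types, 5 were above it in nilotinibR and 9 in parental cells, with summed intensities of 1236 and 1429, most of it from EPCAM and KRT18. Levels below are normalised intensities, that is the mean of a gene's probes after background correction and quantile normalization, with an offset of 50 included. The offset draws the folds of dim genes toward 1. Brightness depends on the probe, so levels of the members are compared between arrays and not between genes. The marker sums above add levels over genes, each with the offset included, and are a description only.

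Most subunits of polymerases I, II and III were lower in nilotinibR than in parental cells, those under 1.5-fold included. With shared subunits counted, this held for 12 of 13 in polymerase I, 13 of 16 in III and 11 of 12 in II. Counted in the same way, 6647 of all 13201 genes measured were lower. The count for polymerase II leaves out the POLR2J copies and POLR2M, and that for III leaves out CRCP, whose symbol the rule did not match. Of the 17 factors of polymerases I and III, 15 lay within 1.5-fold of their parental level, beside 11129 of all 13201 genes measured. Of the 50 members, 14 (28%) were at least 1.5-fold lower in nilotinibR cells, against 8.2% of all genes measured. A single member was at least 1.5-fold higher, which is 2%, against 7.49% of all genes. At 2-fold, 5 members were lower, with 2.77% of all genes as background, and 0 were higher, with 2.43% as background. Of these 5, POLR1C alone stayed past 2-fold without background correction. The median log2 difference, nilotinibR minus parental, was -0.18 over the members and 0.00 over all genes measured. The direction was downward for 35 of the 50 members, those under 1.5-fold included. The counts describe 2 arrays and, given how the rule and lists were set, are no independent evidence of a direction.

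**Figure D1:**
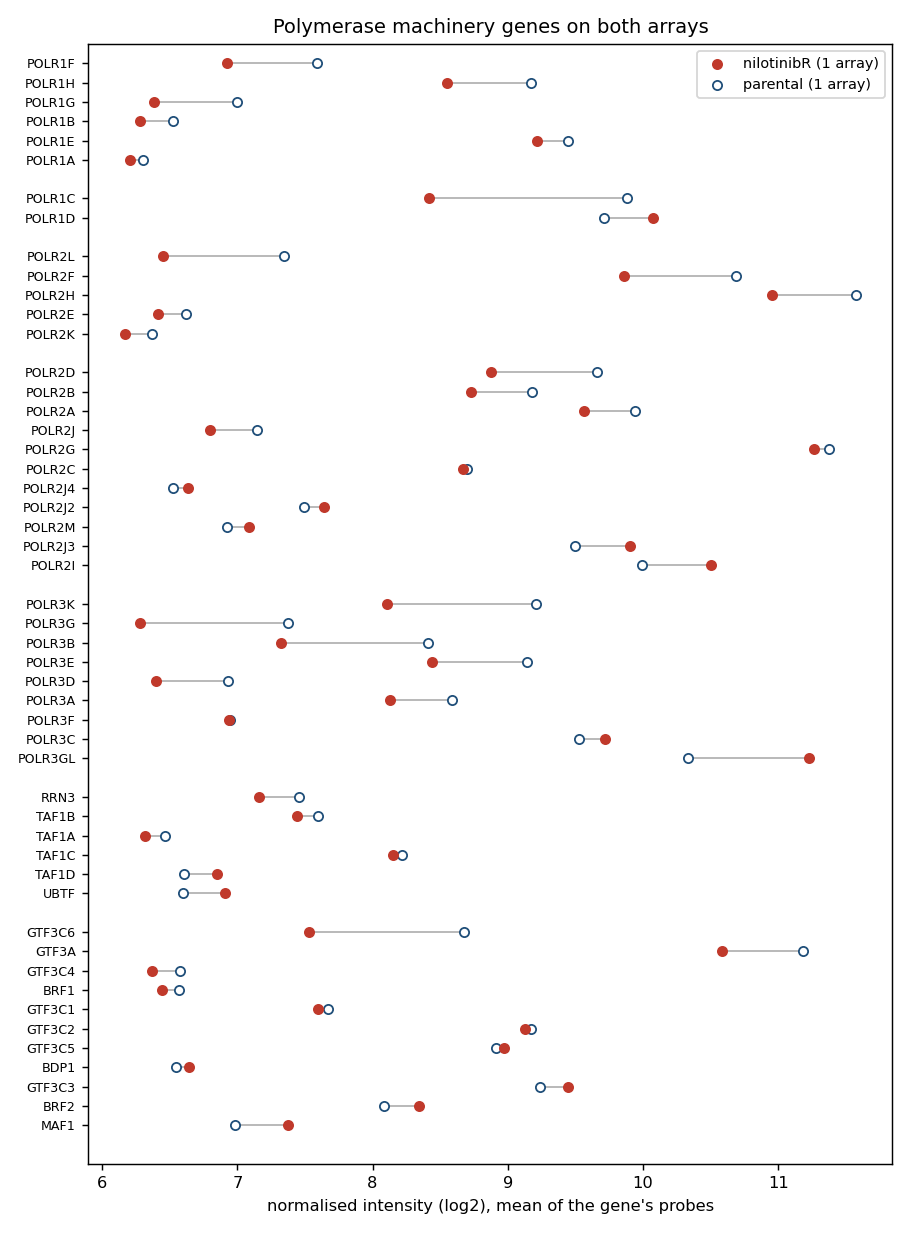
Normalised intensity (log2, x axis) of the 50 polymerase genes on the nilotinibR array (filled red) and the parental array (open blue), 1 array each, grouped from top to bottom as polymerase I subunits, subunits of I and III, of all 3, of II, of III, polymerase I factors and polymerase III factors. The filled point lies left of the open one for all 6 polymerase I subunits and all 5 subunits found in all 3 enzymes, and POLR3GL shows the widest gap in the other direction.

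Counted by enzyme, with shared subunits included, 7 of the 13 polymerase I subunits were at least 1.5-fold lower and their median log2 difference was -0.61. For polymerase III, 8 of 16 subunits were lower, 1 was higher and the median was -0.57. The 16 leave out CRCP (0.05) and count POLR3G and POLR3GL, alternative forms of the same subunit, separately. For polymerase II, leaving out the POLR2J copies and POLR2M, 4 of 12 subunits were lower and the median was -0.36. The enzymes share members, so these counts are not separate from each other: of the 4 lower polymerase II subunits, 3 belong to all 3 enzymes. Over all 33 subunits and copies the median was -0.35 with 12 lower, and over the 17 factors of polymerases I and III it was -0.06 with 2 lower. These are 36.4% and 11.8%, against 8.2% of all genes measured.

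The lowest member relative to parental cells was POLR1C, which forms with POLR1D the assembly platform of polymerases I and III. POLR1C had a normalised intensity of 342 in nilotinibR cells, against 941 in parental cells, a 2.75-fold lower level and a log2 difference of -1.46. Its 2 probes had log2 differences of -1.59 and -1.33, so both showed the change. The partner POLR1D went the other way without passing the threshold, at 1077 in nilotinibR and 836 in parental cells (log2 difference 0.37), with probes at 0.19 and 0.54. The partners of this platform thus differed in direction, and both were well above the dim-probe level on both arrays.

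All 6 subunits found only in polymerase I were lower in nilotinibR cells, 3 of them past 1.5-fold. POLR1F, in the stalk that contacts the initiation factor RRN3, was at 121 in nilotinibR and 193 in parental cells (1.59-fold lower). POLR1H, the zinc ribbon subunit that acts in RNA cleavage, was at 374 in nilotinibR and 577 in parental cells (1.54-fold lower). The 3 probes of POLR1H were all lower, but 1 of them at -1.07 carried the call and the others lay at -0.41 and -0.39. POLR1G, also called PAF49, was at 83.4 in nilotinibR and 127 in parental cells (1.53-fold lower), on a single dim probe. Its partner POLR1E, or PAF53, had a log2 difference of -0.23. Of the catalytic core, POLR1A, the largest subunit, stood at -0.10 and POLR1B, the other large subunit, at -0.24, both dim on both arrays. All 3 calls, of POLR1F, POLR1G and POLR1H, fell short of 1.5-fold without background correction.

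Of the 5 subunits found in all 3 enzymes, 3 were at least 1.5-fold lower and the other 2 were also below their parental level. POLR2L, the small zinc-binding subunit RPB10, was at 87.3 in nilotinibR and 163 in parental cells (1.86-fold lower). POLR2F, the subunit RPB6, was at 931 in nilotinibR and 1651 in parental cells (1.77-fold lower). POLR2H, the subunit RPB8, was at 1989 in nilotinibR and 3051 in parental cells (1.53-fold lower). POLR2F and POLR2H were bright on both arrays, where the offset has little effect, while POLR2L was dim in nilotinibR cells. POLR2E, or RPB5, had a log2 difference of -0.20. POLR2K, or RPB12, was not above the dim-probe level in nilotinibR cells. Under the reported setting its bound was 1.13-fold lower there than in parental cells. Both values lay close to the dim-probe level, and the log2 difference was -0.12 without background correction and -0.14 on the deposited values.

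**Figure D2:**
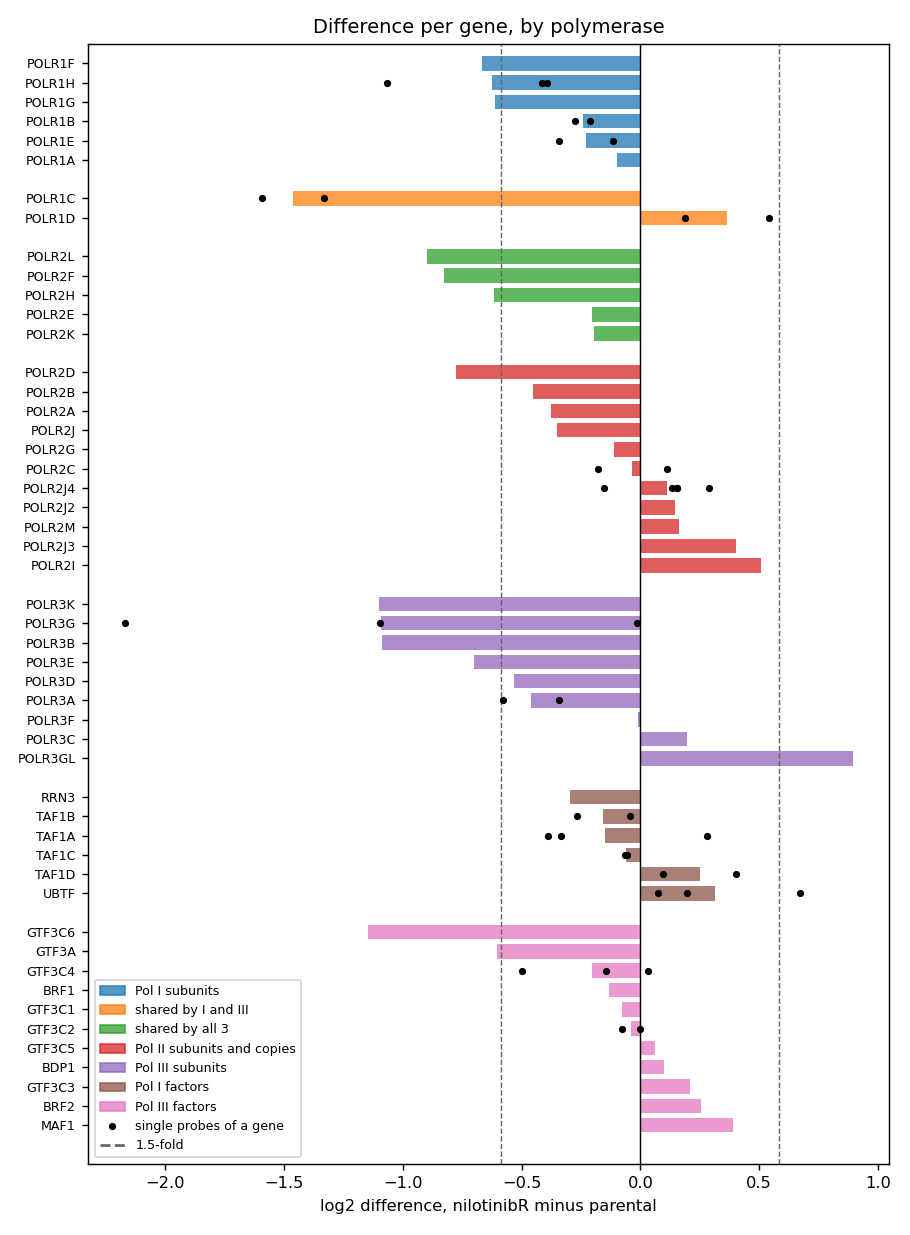
Log2 difference (nilotinibR minus parental, x axis) of each polymerase gene as a bar coloured by group, with the single probes of genes that have several as black dots and dashed lines at 1.5-fold. POLR1C (-1.46) is the longest bar to the left and POLR3GL (0.89) the only bar past the right line, and the bars of both groups of factors are short except for GTF3C6 (-1.14) and GTF3A (-0.60).

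Of the 7 subunits found only in polymerase II, 6 were below their parental level, 1 of them past 1.5-fold, with a median log2 difference of -0.35, beside -0.43 for the 6 subunits found only in polymerase I. With the POLR2J copies and POLR2M included, the median of the 11 genes was -0.03. The difference between the enzymes was not tested. POLR2D, which forms the stalk RPB4/RPB7 with POLR2G, was at 471 in nilotinibR and 807 in parental cells (1.71-fold lower). POLR2G itself had 2459 in nilotinibR and 2658 in parental cells, a log2 difference of -0.11, so the stalk partners differed in size of change. The largest subunit POLR2A, which carries the C-terminal repeat domain, was at 758 in nilotinibR and 984 in parental cells (log2 difference -0.38), and POLR2B, which completes the active centre, stood at -0.45. POLR2J, or RPB11, had -0.35 and its partner POLR2C, or RPB3, had -0.03. POLR2I, the subunit RPB9 that acts in elongation and proofreading, had the largest difference upward among the polymerase II members, at 1450 in nilotinibR and 1020 in parental cells, a 1.42-fold higher level that did not reach the threshold.

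Polymerase III showed the widest spread, with 4 of its 9 own subunits among the members at least 1.5-fold lower and 1 higher. POLR3K, a small subunit that acts in termination, was at 276 in nilotinibR and 592 in parental cells (2.15-fold lower). POLR3B, the other large subunit beside POLR3A, was at 160 in nilotinibR and 340 in parental cells (2.13-fold lower). POLR3E, which forms a TFIIF-like subcomplex with POLR3D, was at 347 in nilotinibR and 564 in parental cells (1.62-fold lower). These 3 calls rest on 1 probe each. POLR3D itself had a log2 difference of -0.53 and fell just short of the threshold, and the catalytic subunit POLR3A had -0.46 with probes at -0.58 and -0.34. Of the initiation subcomplex, POLR3C had 0.19 and POLR3F -0.01.

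POLR3G and POLR3GL encode alternative forms of the same polymerase III subunit, and they moved in opposite directions. POLR3G, the form known for its high expression in pluripotent and transformed cells, had 77.8 in nilotinibR and 166 in parental cells (2.13-fold lower). POLR3GL, the form known to be expressed broadly in adult tissues, had 2394 in nilotinibR and 1289 in parental cells (1.86-fold higher, log2 difference 0.89), and was the one member past the threshold upward. The log2 difference of POLR3GL exceeded that of POLR3G by 1.99. POLR3G has 3 probes, with log2 differences of -2.17, -1.10 and -0.01. The probe at -0.01 was not above the dim-probe level in nilotinibR cells and lay barely above it in parental cells. The probe at -1.10 was barely above that level in nilotinibR cells, at a deposited intensity of 119.5 against 118.9. The size of the POLR3G difference, and of the 1.99, thus rests on nilotinibR values near that level. The brightest of the 3, at a normalised intensity of 88.1 in nilotinibR and 396 in parental cells, was 4.50-fold lower. POLR3GL has a single probe, and its log2 difference lay between 0.77 and 0.91 under the 8 alternative settings. Those on probe choice and dim-probe filter could not change it.

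The factors of polymerase I showed no difference of 1.5-fold. UBTF, the architectural factor UBF of ribosomal DNA, had 120 in nilotinibR and 96.8 in parental cells (log2 difference 0.31), but its 3 measured probes spread between 0.08 and 0.67. RRN3, the factor TIF-IA that couples polymerase I to growth signals, had 143 in nilotinibR and 176 in parental cells (log2 difference -0.30). TAF1A, TAF1B, TAF1C and TAF1D, subunits of the promoter factor SL1, had log2 differences of -0.15, -0.16, -0.06 and 0.25. The group median was -0.10, set beside -0.43 for the 6 subunits found only in polymerase I.

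Among 11 factors of polymerase III, 2 were at least 1.5-fold lower. GTF3C6, the smallest subunit of TFIIIC, which binds the internal promoters of transfer RNA genes, had 185 in nilotinibR and 408 in parental cells (2.21-fold lower). GTF3C6 has another probe, which was above the dim-probe level on neither array and was left out, and with both probes averaged its log2 difference was -0.59. GTF3A, or TFIIIA, the zinc finger factor that binds the 5S ribosomal RNA gene, had 1532 in nilotinibR and 2328 in parental cells (1.52-fold lower). The other 5 subunits of TFIIIC, GTF3C1 to GTF3C5, lay between -0.21 and 0.21. Of TFIIIB, which places the enzyme at the start site, BRF1 had -0.13, BDP1 0.10 and BRF2 0.26. MAF1, the repressor of polymerase III that acts when growth signals are low, had 166 in nilotinibR and 126 in parental cells, a log2 difference of 0.39 that did not pass the threshold. The group median was -0.04, set beside -0.53 for the 9 subunits found only in polymerase III.

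**Figure D3:**
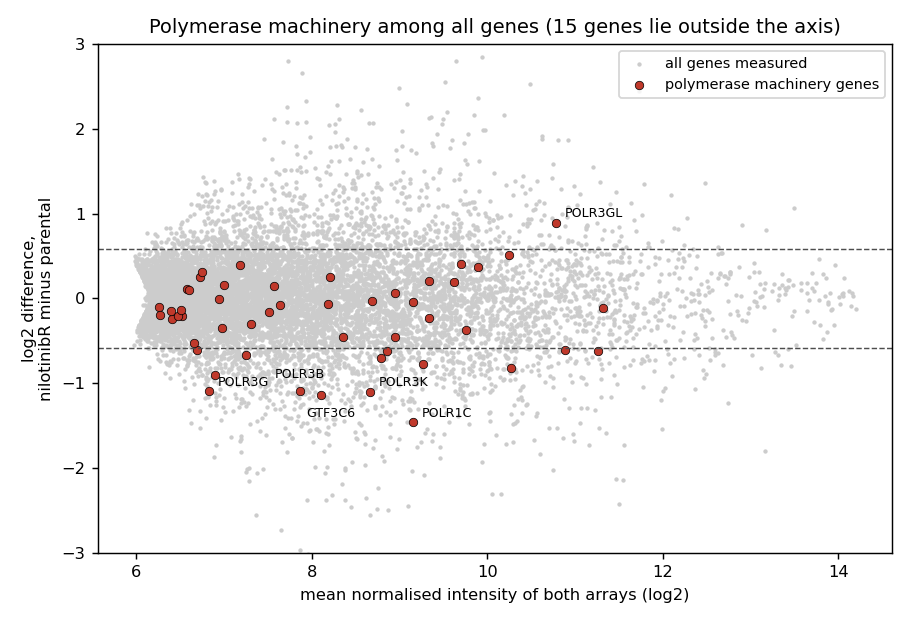
Log2 difference (nilotinibR minus parental, y axis) against the mean normalised intensity of both arrays (log2, x axis) for all 13201 genes measured (grey, of which 15 lie beyond the axis) and the 50 polymerase genes (red), with dashed lines at 1.5-fold. The 14 red points under the lower line run from dim genes such as POLR3G to bright ones, and a single red point, POLR3GL, lies over the upper line.

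The sequences before the start sites are shown for 5 members at the ends of these changes or with a motif described here. Of the 50 members, 39 have a promoter in the RefSeq table of GRCh38.p14, including 13 of the 14 lower ones, and POLR3G is named only. Each run covers 250 bases before the annotated start and 10 after it, 5′ to 3′ on the gene's strand. Capitals mark CACGTG, the E-box that MYC and MAX are known to bind, and in POLR3E also the letters GTTCGANTC of the B box, the internal promoter element of transfer RNA genes that TFIIIC binds. They lie at chr6:110958456-110958715 for GTF3C6, chr6:43516839-43517098 for POLR1C, chr19:45406394-45406653 for POLR1G, chr16:22297159-22297418 for POLR3E and chr1:145964440-145964699 for POLR3GL.
GTF3C6: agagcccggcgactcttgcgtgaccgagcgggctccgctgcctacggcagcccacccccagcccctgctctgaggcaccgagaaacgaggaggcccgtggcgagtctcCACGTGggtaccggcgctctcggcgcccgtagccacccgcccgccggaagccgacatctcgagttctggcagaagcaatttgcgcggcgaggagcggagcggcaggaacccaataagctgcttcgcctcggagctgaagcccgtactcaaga
POLR1C: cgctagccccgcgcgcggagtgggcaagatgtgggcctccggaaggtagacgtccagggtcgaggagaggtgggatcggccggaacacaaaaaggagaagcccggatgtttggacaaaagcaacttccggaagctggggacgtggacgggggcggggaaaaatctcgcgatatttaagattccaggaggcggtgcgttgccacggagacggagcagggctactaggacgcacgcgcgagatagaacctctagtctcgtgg
POLR1G: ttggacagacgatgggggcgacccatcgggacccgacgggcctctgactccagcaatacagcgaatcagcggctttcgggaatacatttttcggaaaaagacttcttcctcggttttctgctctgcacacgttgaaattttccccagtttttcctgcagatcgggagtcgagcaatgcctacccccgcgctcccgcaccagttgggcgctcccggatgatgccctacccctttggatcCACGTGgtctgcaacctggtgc
POLR3E: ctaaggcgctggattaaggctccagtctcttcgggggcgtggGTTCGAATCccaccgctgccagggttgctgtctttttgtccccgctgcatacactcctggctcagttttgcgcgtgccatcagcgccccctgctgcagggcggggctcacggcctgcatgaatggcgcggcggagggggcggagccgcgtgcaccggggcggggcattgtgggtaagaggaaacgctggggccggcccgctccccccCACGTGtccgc
POLR3GL: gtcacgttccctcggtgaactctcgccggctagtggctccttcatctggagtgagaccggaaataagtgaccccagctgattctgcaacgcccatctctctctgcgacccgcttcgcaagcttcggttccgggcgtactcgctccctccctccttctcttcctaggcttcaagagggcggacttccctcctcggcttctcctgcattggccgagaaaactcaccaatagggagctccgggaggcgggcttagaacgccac

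CACGTG, which reads the same on both strands, was found in the 300-base window (250 before, 50 after the start) of 7 of the 39 members (17.9%), against 12.2% of measured genes with a promoter and 8.77% of all 27305 promoters. It was present in 3 of the 13 lower members and in 4 of the other 26. It begins 142 bases before the start in GTF3C6, 12 bases before it in POLR1G and 1 base before it in POLR3E, while POLR1C and POLR3GL hold none. MYC itself was lower in nilotinibR cells, at 383 against 1290 in parental cells, a 3.36-fold difference shown by both its probes (-1.80 and -1.70), and its part in these levels was not tested. Searched on both strands, TTCCGG, the core bound by ETS factors, was in 61.5% of member windows and in 32.1% of measured ones. It was in 7 of the 13 lower members, so its share there was no higher than among all members. The related GGAAGT, whose reverse strand overlaps TTCCGG wherever both make up ACTTCCGG, was in 41.0% and 32.4%. CACATG was in 2.56% and 10.2%, CCATCTT, a YY1 core, in 7.69% and 9.36%, and GGCGG, a GC box core, in 84.6% and 86.6%. A match says only that the letters are there.

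The POLR3E window overlaps an annotated leucine transfer RNA gene, TRL-AAG2-4, at chr16:22297140-22297221 of the same build. Of the 27305 genes with a promoter in the table, 28 (0.103%) have an annotated transfer RNA gene that overlaps the window, and POLR3E is the single member among them. The B box letters in the POLR3E window begin at position 22297201, inside that gene. They also occur in the TAF1C window, which has no annotated transfer RNA gene, and in 0.315% of all promoters. A gene for a polymerase III subunit thus lies next to a gene of the kind that polymerase III transcribes. The transfer RNA was not analysed here.

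Related genes were counted over 8 lists. Of all genes measured, 8.2% were at least 1.5-fold lower and 7.49% higher, and 6647 of 13201 lay below their parental level. The list counts are to be read beside these shares. Of 14 measured genes that assemble polymerases in the cytoplasm, 5 (35.7%) were at least 1.5-fold lower and 0 higher. Their median log2 difference was -0.30. PFDN6, a prefoldin subunit, had 210 in nilotinibR and 529 in parental cells (2.52-fold lower). RUVBL2, an ATPase of the R2TP chaperone complex, had 325 in nilotinibR and 735 in parental cells (2.26-fold lower). Its partner RUVBL1 had a mean of -0.84 over 3 probes that spread between -1.54 and 0.19. PIH1D1, which links R2TP to its clients, was at -0.72, and the GTPase GPN3, which acts in nuclear import of polymerase II, at -0.61.

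The machinery that transcribes mitochondrial DNA, with its own polymerase, showed 3 of 8 measured genes (37.5%) at least 1.5-fold lower, against 8.2% of all genes. It showed 0 higher and a median of -0.35. TFB2M, which opens the mitochondrial promoter, had 353 in nilotinibR and 870 in parental cells (2.46-fold lower). TFAM, which packages and activates mitochondrial DNA, had 843 in nilotinibR and 1627 in parental cells (1.93-fold lower). POLRMT, the mitochondrial polymerase, had 258 in nilotinibR and 408 in parental cells (1.58-fold lower). These 3 genes act at the same promoters, but they are named because they passed 1.5-fold. Of the 8 genes, 6 were below their parental level, while MTERF3 (0.39) and MTERF2 (0.25, on a dim probe) were above it.

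The other lists of the polymerase II machinery differed in the sign of their medians. For general factors 11.8%, Mediator 3.85%, elongation factors 8.33% and the SNAP complex 25% were at least 1.5-fold lower, against 8.2% of all genes. Of TBP-associated factors 7.14% were at least 1.5-fold higher, against 7.49% of all genes. Apart from the SNAP complex, with 4 genes, these shares lie near or under those of all genes. Of 17 measured general factors 14 were below their parental level, 2 at least 1.5-fold lower and 0 higher (median -0.18, as for the 50 members), and those 2 were the subunits of TFIIE, GTF2E2 at -0.87 and GTF2E1 at -0.61. Of 14 TBP-associated factors 0 were lower and 1 was higher, TAF7 at 0.68 (median 0.24). Mediator had 1 lower of 26, MED27 at -0.79 (median 0.06), and the elongation factors 1 lower of 12, LEO1 at -0.67 (median 0.09). The SNAP complex, which starts the small nuclear RNA genes of polymerases II and III, had 1 lower of 4, SNAPC2 at -0.71 (median -0.38). TBP, which all 3 polymerases use, had 511 in nilotinibR and 480 in parental cells. CRCP, a polymerase III subunit whose symbol the rule did not match, had a log2 difference of 0.05.

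**Figure D4:**
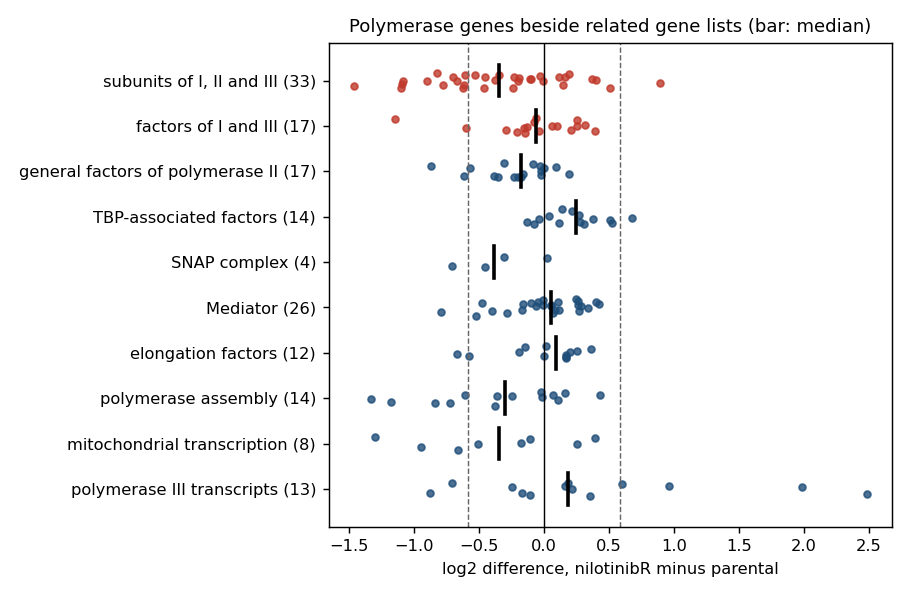
Log2 difference (nilotinibR minus parental, x axis) of single genes, as points, and the list median, as a black bar, for polymerase subunits and factors (red) and the 8 related lists (blue), with the number of measured genes in brackets and dashed lines at 1.5-fold. Medians are -0.35 for the subunits, -0.30 for the assembly genes and -0.35 for mitochondrial transcription, and the points of polymerase III transcripts spread the widest.

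The probe signals of RNAs that polymerase III makes differed in both directions. Of 13 measured transcripts, 4 (30.8%) were at least 1.5-fold higher and 2 (15.4%) lower, against 7.49% and 8.2% of all genes. The median log2 difference was 0.18. RN7SK, the 7SK RNA that holds the elongation kinase P-TEFb inactive, had 1208 in nilotinibR and 216 in parental cells (5.60-fold higher), with its 2 probes at 2.47 and 2.50. RNA5S9, annotated as a 5S ribosomal RNA gene, had 1999 in nilotinibR and 504 in parental cells (3.97-fold higher). RNY5, a Y RNA, was 1.94-fold higher and RNU6-1, a U6 spliceosomal RNA, 1.52-fold higher. RNY1 and VTRNA2-1, a vault RNA relative, were lower at -0.71 and -0.88. RN7SL1, the RNA of the signal recognition particle, had 12109 in nilotinibR and 10838 in parental cells. These RNAs lack the long poly(A) tail of messenger RNAs, and how far extraction and labelling captured them on each array was not measured. The differences are therefore differences in probe signal and may not be differences in amount. The RNAs also come from repeated gene families, so probes can read related copies.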

How the data were processed

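The authors scanned the arrays, processed them with GenomeStudio and named robust multichip average for normalization. They deposited linear intensities that still hold background, and the sources used here do not say which of these steps went into them. A further 4 columns of scanner values fit no label and were left out. With limma 3.58.1 in R 4.3.3, intensities were background-corrected (normexp, offset 50), quantile normalized and log2 transformed. On each array the dim-probe level was the intensity that 5% of background would exceed, 119 for nilotinibR and 120 for parental cells. Probes above it on at least 1 array were averaged per gene. Of the probes, 30113 had 1 symbol in the platform annotation, 8 several and 17202 none, and 30074 were found in the RefSeq table of GRCh38.p14, through which older symbols were updated. The 1.5-fold threshold follows the study. The members and lists were chosen with earlier results of these data known. Every member is named, those past 1.5-fold with their levels on both arrays, and up to 3 leading genes per related list, with further list genes named after their values were seen. A bound sets the level on the brighter array against the lowest level above the dim-probe level on the other. The steps were tested on simulated data. No test was run, because each condition has 1 array, and this number of arrays sets the precision.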

Additional observations from a re-analysis of the deposited data

How the results depend on the processing

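Over 8 alternatives of background correction, normalization, dim-probe filter and probe choice, 390 of 399 gene values stayed on their side of 1.5-fold. Of the rest, 7 lost the call and 2 gained it, and no member past 1.5-fold changed direction. For the 34 members with 1 kept probe, taking the brightest probe or requiring both arrays could not change a value. Dropping the filter could change one only where a left-out probe exists. For these members such settings are no check of stability. All 64 medians moved by less than the SD between probes given below, which is a loose bound because that SD describes single probes. The median of the 9 subunits found only in polymerase III was -0.53 as reported and -0.76 with an offset of 16. The median of the 11 polymerase II members, -0.03 as reported, was 0.11 with the brightest probe of each gene. The count of members at least 1.5-fold lower was 11 without background correction and on the deposited values (POLR1F, POLR1G and POLR1H lost), 15 with an offset of 16 (POLR3D gained) and 13 with the brightest probe (POLR1H lost), while all genes measured gave between 4.97% and 12.5% across settings. The count of higher members was 2 with the brightest probe of a gene, where UBTF joined at a log2 difference of 0.67. With a fold threshold of 2 the counts were 5 lower and 0 higher under the reported setting. The lower count depends on the processing. Without background correction POLR1C (-1.35) stayed past 2-fold, while POLR3K (-0.99), GTF3C6 (-0.98), POLR3B (-0.91) and POLR3G (-0.83) fell short. Of the 15 members past 1.5-fold, 12 kept the call under all 8 alternatives, the exceptions being POLR1F, POLR1G and POLR1H. No paired analysis was possible because each condition has 1 array, and no replicate could be left out. The cause of these shifts was not tested. Of the 14 lower members, 11 rest on 1 kept probe. Over genes with exactly 2 probes above the dim-probe level on both arrays, the SD between probes of a gene was 0.25 on the log2 scale (2102 pairs). It leaves out genes with more probes and holds no error between cultures.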

Other observations

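Among the 16 polymerase genes with several measured probes, all probes had the same sign in 12, of which 9 were lower and 3 higher in nilotinibR cells. The 4 genes of mixed sign were POLR2C, POLR2J4, TAF1A and GTF3C4. The copies of POLR2J are near-identical in sequence, so their probes may read each other's transcripts: POLR2J2 had a log2 difference of 0.14, POLR2J3 of 0.40 and POLR2J4, a noncoding copy with 5 measured of 12 probes, of 0.11, beside -0.35 for POLR2J. POLR2M, the polymerase II-associated protein Gdown1, had 0.16 on 1 measured of 4 probes.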
